A study of Mus musculus with 8 samples.

Results

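The genes described here are the glucose, amino acid and lactate transporters of the solute carrier families Slc1a, Slc2a, Slc3a, Slc7a, Slc16a, Slc36a, Slc38a and Slc43a. They were chosen by symbol: every gene whose annotated symbol starts with one of these names and that has a probe set annotated with that single symbol, read through its probe set with the highest mean signal. The rule found 69 of 19938 genes, read through 72 probe sets, and used no measured difference between samples. Slc2a4rg-ps, a pseudogene, and Slc7a6os, named for its place opposite Slc7a6, share the symbols without being transporters. Messenger RNA was measured on Affymetrix whole-transcript arrays in mouse T helper cells of 4 groups with 2 arrays each. Tet2-deficient Th17 and Tet2-deficient Th1 cells were derived from CD2(Cre)Tet2(f/f) mice, in which Cre recombinase driven by CD2 sequences, active in the lymphocyte lineage, recombines the floxed Tet2 alleles. Wild-type Th17 and wild-type Th1 cells came from Tet2(f/f) mice, so that both genotypes carried floxed Tet2 and the Cre transgene was in the Tet2-deficient mice only. The culture conditions, the age and number of the mice and the floxed exons are not given in the sources used here.

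Activated T helper cells take up large amounts of glucose, through facilitative carriers of the Slc2a (GLUT) family, and release much of it as lactate through proton-linked monocarboxylate carriers of the Slc16a (MCT) family. Amino acids enter through the exchangers of the Slc1a and Slc7a families, several of which need the heavy chain encoded by Slc3a2 (CD98), and through the sodium-coupled carriers of Slc38a. Slc36a1 and Slc38a9 act at the lysosome, where amino acids activate the growth-promoting kinase complex mTORC1. Th1 cells are known for interferon gamma and Th17 cells for interleukin-17. Tet2 oxidises methylated cytosine in DNA.

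The arrays matched their subset labels. The mean log2 signal of 4 Th17 markers lay between 8.91 and 9.43 on the Th17 arrays, against 5.81 to 6.08 on the Th1 arrays, and 4 T helper markers averaged 10.3 to 10.6 on all 8 arrays. The mean of 4 Th1 markers was 10.05 to 10.41 on the Th1 arrays, against 7.69 to 7.92 on the Th17 arrays. Of these, 3 were lower in Th17 cells in each genotype. Cxcr3 overlapped between the subsets, at 7.61 to 7.85 in Th1 and 7.41 to 7.69 in Th17 cells. The Tet2 probe set had log2 signals of 8.34 and 8.39 on the Tet2-deficient Th17 arrays, against 8.51 and 8.49 in their wild-type counterparts. In Th1 cells they were 8.12 and 7.98 on the Tet2-deficient arrays, against 8.14 and 8.02 on the wild-type arrays. Neither difference passed (adjusted p = 0.99996 and 0.982, limma). This signal cannot check the deletion, because the floxed exons are not given and the probes could lie outside them. The Th17 arrays also differed from the Th1 arrays in other ways. Estimated from the Xist signal, the share of female RNA was 14.7% and 100% in Tet2-deficient Th17 cells and 0.187% and 42.9% in wild-type Th17 cells, against -0.13% to 0.105% on the 4 Th1 arrays, on a scale with the mean of the Th1 arrays at 0% and the highest array at 100%. Of 3 natural killer markers and 8 myeloid markers, 1 each, Klrd1 and Ly6g, rose in Tet2-deficient Th17 cells against Tet2-deficient Th1 cells, and Ly6g rose in wild-type Th17 cells as well. The summed natural killer markers lay between 7.60 and 8.28 (log2) in Tet2-deficient Th17, 6.88 and 6.97 in wild-type Th17, 6.63 and 6.65 in Tet2-deficient Th1, and 6.62 and 6.74 in wild-type Th1 cells. The summed myeloid markers lay between 10.48 and 10.68 in Tet2-deficient Th17, 9.68 and 9.99 in wild-type Th17, 9.48 and 9.55 in Tet2-deficient Th1, and 9.38 and 9.43 in wild-type Th1 cells. The 2 sums follow Klrd1 and Ly6g. The other 7 myeloid markers read 4.36 to 6.47 on all arrays, and 6 of the 8 had a log2 fold change below 0 in Tet2-deficient and 7 in wild-type Th17 against Th1 cells. Among them Adgre1 and S100a8 fell in the average over genotypes. The part of these markers or of sex in the results below was not tested, beyond the fits with the female share as a covariate given below.

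The bases before the annotated start are shown for 3 genes that were higher in Th17 cells, Slc16a3, Slc38a6 and Slc36a1, and for Slc16a1, the lactate carrier that was not. They are the 250 bases upstream of the start in the RefSeq promoter table of assembly GRCm38.p6, all on the plus strand, written 5′ to 3′. Capitals mark ACGTG on either strand, the core of the hypoxia response element bound by HIF factors, which reads CACGT on the other strand. The windows are chr11:120948817-120949066 for Slc16a3, chr12:73286598-73286847 for Slc38a6, chr11:55204090-55204339 for Slc36a1 and chr3:104638414-104638663 for Slc16a1. For Slc16a3 the whole window, and for Slc38a6 and Slc36a1 its last bases, lie inside the annotated span of the gene, which begins farther upstream.
Slc16a3: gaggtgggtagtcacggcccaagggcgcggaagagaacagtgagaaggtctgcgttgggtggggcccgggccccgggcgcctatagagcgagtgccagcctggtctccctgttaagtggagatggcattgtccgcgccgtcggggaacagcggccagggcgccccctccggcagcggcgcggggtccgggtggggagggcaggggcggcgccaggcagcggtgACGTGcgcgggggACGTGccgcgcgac
Slc38a6: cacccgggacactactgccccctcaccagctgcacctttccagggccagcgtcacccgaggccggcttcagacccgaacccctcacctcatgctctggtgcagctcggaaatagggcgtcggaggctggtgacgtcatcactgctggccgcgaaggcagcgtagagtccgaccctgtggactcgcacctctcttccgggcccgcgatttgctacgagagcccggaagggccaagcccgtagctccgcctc
Slc36a1: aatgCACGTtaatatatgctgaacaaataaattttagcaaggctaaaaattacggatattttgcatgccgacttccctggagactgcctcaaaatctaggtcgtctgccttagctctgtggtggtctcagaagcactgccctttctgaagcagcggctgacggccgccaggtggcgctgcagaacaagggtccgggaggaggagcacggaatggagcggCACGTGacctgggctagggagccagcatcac
Slc16a1: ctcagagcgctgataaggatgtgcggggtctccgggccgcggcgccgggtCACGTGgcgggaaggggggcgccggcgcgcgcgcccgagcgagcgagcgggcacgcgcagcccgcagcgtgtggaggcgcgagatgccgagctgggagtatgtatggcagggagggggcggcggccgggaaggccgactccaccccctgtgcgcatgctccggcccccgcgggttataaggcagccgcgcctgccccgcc

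The Slc16a3 window held 2 separate matches, 27 and 14 bases upstream of the start, and 29 CpG dinucleotides, the bases that Tet enzymes act on once methylated. As many CpGs occur in 6.78% of all 32851 windows. The Slc38a6 window held 0 matches and 21 CpGs. Among the other genes named below as higher in Th17 cells, Slc43a2, Slc16a10 and Slc2a6 had windows with 0 matches, not shown. Slc16a6 and Slc2a3 had no window in the table. In Slc36a1 there were 3 matches, 2 of which are both strands of a single CACGTG, the E-box bound by Myc and related factors, and 12 CpGs. Slc16a1 had a CACGTG 200 bases upstream, counted as 2 matches, and 37 CpGs, as many as 2.20% of windows hold. Windows were in the table for 51 of the 69 genes, 62 in all. ACGTG occurred in 16 of these 62 windows (25.8%), against 16.6% of all windows, and CACGTG, which contains it, in 9 (14.5%), against 6.02%. TGATGNAA, the element bound by the amino acid response factor ATF4, occurred in 3 (4.84%), against 3.45%, among them the window of Slc7a11. The windows of the 69 genes held 1 to 38 CpGs, with a median of 10.5, against a median of 6 in all windows. ACGTG and CACGTG each contain a CpG, and these shares were neither tested nor adjusted for CpG content. A match is a description of the sequence, and methylation was not measured.

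Between the subsets, a small group of transporters was called higher in Th17 cells in at least 1 genotype. They were the lactate exporter Slc16a3 and the amino acid carriers Slc43a2, Slc38a6 and Slc36a1. The others were the monocarboxylate carriers Slc16a6 and Slc16a10 and the glucose carriers Slc2a3 and Slc2a6. In Tet2-deficient cells, 7 of the 69 genes rose and 1 fell in Th17 against Th1 (limma, adjusted p under 0.05). That is 11.6% of them, against 10.1% of all 19938 genes, of which 6.32% rose and 3.79% fell. In wild-type cells 4 rose and 2 fell, or 8.70%, against 8.4% of all genes (4.97% higher and 3.44% lower). As a share, then, the transporters differed between the subsets about as often as other genes did. The Th17 arrays did not overlap the Th1 arrays for 55.1% of the 69 genes in Tet2-deficient cells, against 57.5% of all genes. In wild-type cells these shares were 53.6% and 52.2%, and none was tested. Groups without overlap, given for single genes below, were thus about as common over all genes. The share of genes with no overlap across both genotypes together was not counted. Slc16a3 and Slc43a2 passed in both genotypes, which is 2 of the 8 and 2 of the 6 genes. The median log2 fold change of the 69 genes was -0.09 in Tet2-deficient and -0.04 in wild-type cells, against -0.03 in both for all genes. The Tet2-deficient median was -0.03 without the first Tet2-deficient Th1 array, against -0.01 for all genes. The wild-type median was 0.01 with a second quantile normalisation, against -0.0004 for all genes. With centred arrays the medians were -0.04 and -0.007, against 0.02 and 0.01 for all genes. With dim genes filtered out, which left 28 of the 69, they were 0.08 and 0.17, against 0.07 and 0.09 for all genes kept. The Tet2-deficient median was below 0 in all other settings. The wild-type median and the medians of all genes changed sign with the normalisation. With the arrays normalised by quantiles a second time, the split in Tet2-deficient cells was 4 higher and 4 lower. With each array centred on its median, it was 9 higher and 0 lower in Tet2-deficient cells and 5 higher and 1 lower in wild-type cells.

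The average of both genotypes' differences, a comparison of 4 against 4 arrays added after the data were seen, gave 10 genes that rose and 5 that fell, 21.7% of the 69, against 22.2% of all genes (12.4% higher and 9.79% lower). The 5 that fell were Slc3a2, Slc16a14, Slc16a8, Slc16a4 and Slc38a3. Centring the arrays left 10 higher and 2 lower. In this average, Slc16a3, Slc43a2, Slc38a6, Slc16a6 and Slc36a1 kept their calls under all 17 alternative settings. Slc2a3 and Slc2a6 lost theirs only with the share of female RNA as a covariate (adjusted p = 0.077 and 0.0678). None of the 69 genes passed a test of whether the Th17 against Th1 difference itself depended on the genotype, where the smallest adjusted p was 0.812. Values are log2 signals, ± is the standard error of a log2 fold change, and each group has n = 2 arrays. The titles call the arrays biological replicates without saying that they came from separate mice, so the p-values measure the spread between these samples. In bulk RNA, fewer cells of a type and less RNA per cell cannot be told apart.

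Slc16a3 encodes MCT4, the carrier that exports lactate from cells with high glycolysis. Its log2 signal was 9.53 and 9.51 on the Tet2-deficient Th17 arrays, against 8.65 and 8.58 on the Tet2-deficient Th1 arrays. In wild-type cells it was 9.28 and 9.25 in Th17, against 8.71 and 8.71 in Th1. Every Th17 array lay above every Th1 array, and the groups did not overlap. The log2 fold change was 0.90 ± 0.11 in Tet2-deficient cells (1.87-fold, adjusted p = 0.000309) and 0.56 ± 0.11 in wild-type cells (1.47-fold, adjusted p = 0.00942). The first held in all 18 alternatives. The second was lost when either wild-type Th17 array was left out, with an adjusted p of at most 0.0576. After adding the female share to the fit, the average over genotypes was 0.74 (adjusted p = 0.00196).

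Slc16a1 encodes MCT1, which carries lactate and pyruvate in both directions. It read 9.83 and 9.87 on the Tet2-deficient Th17 arrays, against 10.28 and 10.15 on the Tet2-deficient Th1 arrays, and 10.19 and 10.17 in wild-type Th17 cells, against 10.10 and 10.45 in wild-type Th1 cells. Both Tet2-deficient Th17 arrays lay below all others, while the remaining groups overlapped. The log2 fold change was -0.36 ± 0.14 in Tet2-deficient cells (adjusted p = 0.122) and -0.10 ± 0.14 in wild-type cells (adjusted p = 0.712), neither passing. Slc16a6 (MCT7), linked to ketone body transport in zebrafish, had 8.37 and 8.16 on the Tet2-deficient Th17 arrays, against 7.84 and 7.69 on the Tet2-deficient Th1 arrays, and 8.35 and 8.39 in wild-type Th17 cells, against 8.06 and 7.99 in wild-type Th1 cells. All Th17 arrays exceeded all Th1 arrays, with a log2 fold change of 0.50 ± 0.12 (adjusted p = 0.0203) in Tet2-deficient cells and 0.35 ± 0.12 (adjusted p = 0.0985) in wild-type cells. The Tet2-deficient call was lost with a second quantile normalisation, with the female share, and without either Tet2-deficient Th1 array or the first Tet2-deficient Th17 array.

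Slc16a10 encodes TAT1, a carrier of aromatic amino acids and thyroid hormone. Its signal was 8.19 and 8.06 on the Tet2-deficient Th17 arrays, against 7.74 and 7.38 on the Tet2-deficient Th1 arrays, and 7.65 and 7.89 in wild-type Th17 cells, against 7.38 and 7.69 in wild-type Th1 cells. The Tet2-deficient groups were apart and the wild-type groups overlapped. It rose by 0.57 ± 0.15 in Tet2-deficient Th17 cells (adjusted p = 0.0350), a call lost in 5 of 18 alternatives, and the wild-type value of 0.23 ± 0.15 did not pass (adjusted p = 0.390). The genes of this family that were lower in Th17 cells had signals near or below the array median. Slc16a8, which encodes the retinal lactate carrier MCT3, read 6.16 and 6.07 in wild-type Th17 cells, against 6.61 and 6.66 in wild-type Th1 cells, a log2 fold change of -0.52 ± 0.11 (adjusted p = 0.0132). The call was lost without the second wild-type Th1 or the second wild-type Th17 array, with an adjusted p of at most 0.107. In Tet2-deficient cells it read 6.54 and 6.36 in Th17, against 6.39 and 6.50 in Th1, with overlap and a log2 fold change of 0.00 ± 0.11. Slc16a14, a carrier whose substrate is not established, read 5.29 and 5.36 on the Tet2-deficient Th17 arrays, against 5.63 and 5.78 in Tet2-deficient Th1 cells (-0.39 ± 0.11, adjusted p = 0.0445). That call was kept in 6 of 17 alternatives.

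**Figure D1:**
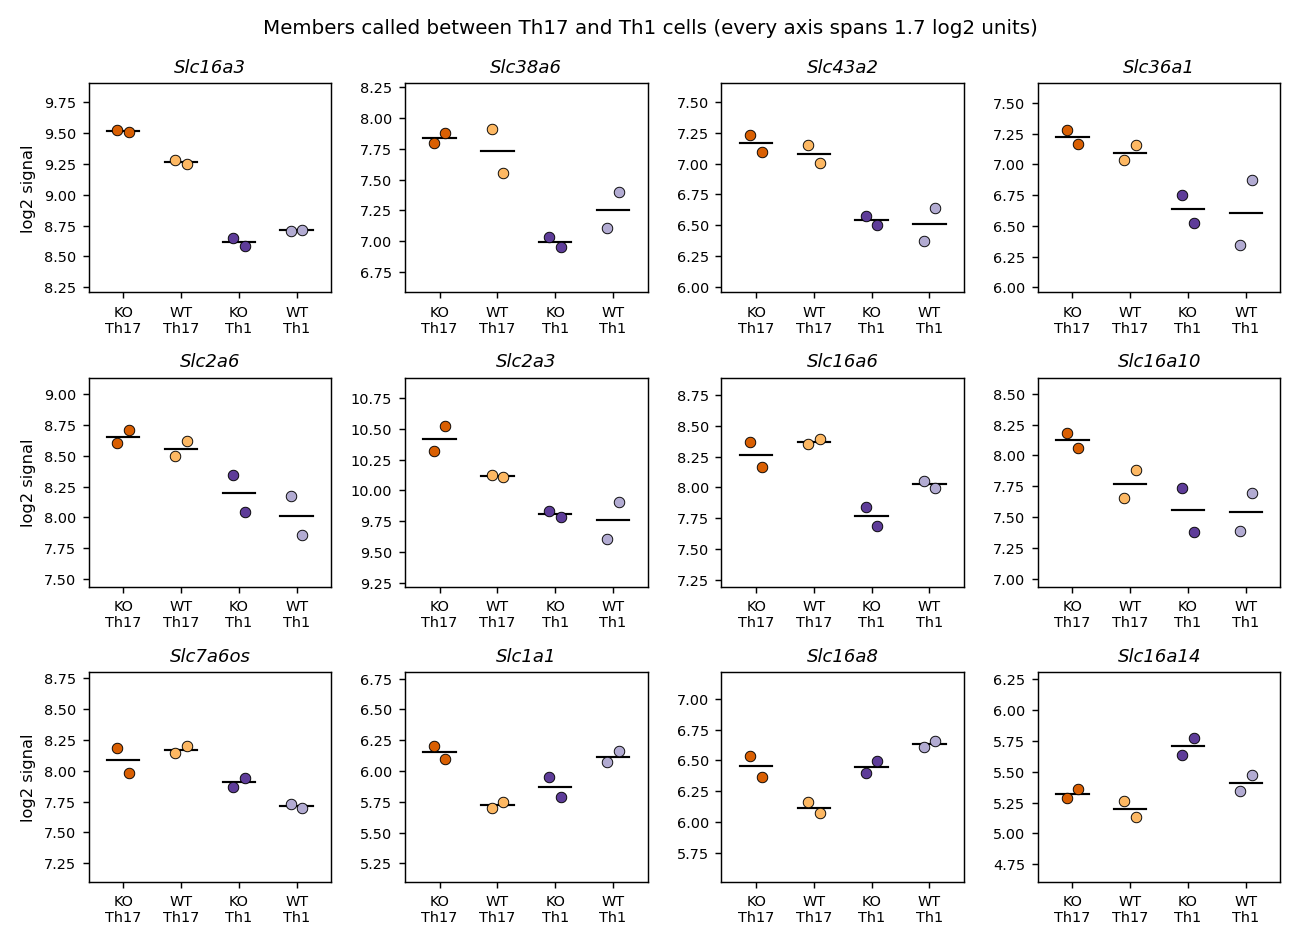
Log2 signal of each array (points) and group mean (bars) for the 12 genes called between Th17 and Th1 cells in either genotype, in Tet2-deficient Th17, wild-type Th17, Tet2-deficient Th1 and wild-type Th1 cells. Each panel has its own axis of the same length, since levels of different genes cannot be compared on an array. Slc16a3 shows the Th17 arrays at 9.25 to 9.53, above the Th1 arrays at 8.58 to 8.71.

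Among the glucose carriers, Slc2a3 was called higher in Th17 cells in the Tet2-deficient genotype and Slc2a6 in the wild-type genotype. The main T cell carrier Slc2a1 did not pass. Slc2a3, the high-affinity carrier GLUT3, read 10.32 and 10.52 on the Tet2-deficient Th17 arrays, against 9.83 and 9.78 on the Tet2-deficient Th1 arrays, and 10.12 and 10.11 in wild-type Th17 cells, against 9.60 and 9.91 in wild-type Th1 cells. Th17 arrays exceeded Th1 arrays throughout. The gene rose by 0.61 ± 0.14 in Tet2-deficient cells (1.53-fold, adjusted p = 0.0134), and the 0.36 ± 0.14 of wild-type cells did not pass (adjusted p = 0.126). The call was lost with the female share as a covariate, without either Tet2-deficient Th1 array and without the second Tet2-deficient Th17 array. Slc2a6, the lysosomal carrier GLUT6, read 8.60 and 8.71 on the Tet2-deficient Th17 arrays, against 8.34 and 8.04 on the Tet2-deficient Th1 arrays, and 8.50 and 8.62 in wild-type Th17 cells, against 8.17 and 7.86 in wild-type Th1 cells. Again no Th17 array overlapped a Th1 array, and here the wild-type difference passed (0.54 ± 0.14, adjusted p = 0.0358) and the Tet2-deficient one did not (0.46 ± 0.14, adjusted p = 0.0616). The wild-type call was kept in 11 of 19 alternatives, and the Tet2-deficient difference passed in 5 of 18.

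Slc2a1 (GLUT1) read 10.80 and 10.77 on the Tet2-deficient Th17 arrays, against 10.92 and 10.59 on the Tet2-deficient Th1 arrays, and 10.80 and 10.87 in wild-type Th17 cells, against 10.62 and 10.90 in wild-type Th1 cells. All 4 groups overlapped. The log2 fold change was 0.03 in Tet2-deficient cells, with a 95% interval from -0.28 to 0.34, and 0.08 in wild-type cells, with an interval from -0.24 to 0.39. The other 10 genes of the Slc2a family did not pass in either genotype, and 8 of the 13 lay below the array median on all 8 arrays.

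Among the 16 genes of the Slc7a family of amino acid exchangers, 1 was called. It was Slc7a6os, which is no transporter, and it was higher in wild-type Th17 cells (0.46 ± 0.12, adjusted p = 0.0308). The call was kept in 12 of 19 alternatives and lost without any one of the 4 wild-type arrays. In each genotype 4 of the 16 genes had a log2 fold change above 0, as had 44.3% of all genes in Tet2-deficient and 44.9% in wild-type cells, a count with no test. Slc7a5 encodes LAT1, the leucine exchanger, and read 11.15 and 11.05 on the Tet2-deficient Th17 arrays, against 11.50 and 11.64 on the Tet2-deficient Th1 arrays. In wild-type cells it read 11.22 and 11.38 in Th17, against 11.14 and 11.49 in Th1. The Tet2-deficient groups were apart and the wild-type groups overlapped, and neither difference passed (-0.46 ± 0.14, adjusted p = 0.0594, and -0.01 ± 0.14, adjusted p = 0.971). The Tet2-deficient difference of Slc7a5 passed in 6 of 18 alternatives. Its partner Slc3a2, the CD98 heavy chain, read 11.20 and 11.06 on the Tet2-deficient Th17 arrays, against 11.67 and 11.51 on the Tet2-deficient Th1 arrays, and 11.03 and 11.31 in wild-type Th17 cells, against 11.26 and 11.56 in wild-type Th1 cells. The Tet2-deficient groups were apart, and in wild-type cells the lower Th1 array lay below the higher Th17 array. Slc3a2 did not pass in either genotype (-0.46 ± 0.15, adjusted p = 0.0678, and -0.24 ± 0.15, adjusted p = 0.340) but fell in the average over genotypes (-0.35 ± 0.10, adjusted p = 0.0303), a call kept in 11 of 17 alternatives. Its Tet2-deficient difference passed in 5 of 18 alternatives.

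Slc7a1 encodes CAT1, the arginine and lysine carrier. It read 9.41 and 9.31 on the Tet2-deficient Th17 arrays, against 10.07 and 9.66 on the Tet2-deficient Th1 arrays, and 9.60 and 9.60 in wild-type Th17 cells, against 9.58 and 9.84 in wild-type Th1 cells. The Tet2-deficient Th17 arrays were the lowest of all 8. The differences of -0.51 ± 0.15 (adjusted p = 0.0535) and -0.11 ± 0.15 (adjusted p = 0.714) did not pass, but the first passed in 6 of 18 alternatives. Slc7a11, the cystine exchanger xCT, read 4.89 and 4.92 on the Tet2-deficient Th17 arrays, against 5.05 and 5.17 on the Tet2-deficient Th1 arrays, and 5.06 and 5.07 in wild-type Th17 cells, against 5.04 and 5.30 in wild-type Th1 cells. It was below the array median throughout and did not pass (-0.21 ± 0.12, adjusted p = 0.300, and -0.11 ± 0.12, adjusted p = 0.617). Slc1a1, the glutamate and cysteine carrier EAAT3, was also below the array median throughout. Its signal was 5.70 and 5.75 in wild-type Th17 cells, against 6.07 and 6.16 in wild-type Th1 cells (-0.40 ± 0.11, adjusted p = 0.0429), a call kept in 7 of 18 alternatives. In Tet2-deficient cells the order was the opposite, at 6.21 and 6.10 in Th17, against 5.95 and 5.79 in Th1 (0.28 ± 0.11, adjusted p = 0.125), and did not pass.

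Among the sodium-coupled carriers, Slc38a6 had the largest difference in both genotypes. It encodes SNAT6, a member of the glutamine carrier family that has been studied little. The signal was 7.80 and 7.88 on the Tet2-deficient Th17 arrays, against 7.04 and 6.95 on the Tet2-deficient Th1 arrays, and 7.91 and 7.55 in wild-type Th17 cells, against 7.11 and 7.40 in wild-type Th1 cells. No Th17 array was as low as any Th1 array. Slc38a6 rose by 0.85 ± 0.14 in Tet2-deficient Th17 cells (1.80-fold, adjusted p = 0.00256), in all 18 alternatives. The wild-type value of 0.48 ± 0.14 did not pass (adjusted p = 0.0573), but did so in 5 of 19 alternatives. Slc38a1 and Slc38a2, the glutamine carriers SNAT1 and SNAT2, did not pass. Slc38a1 read 10.58 and 10.62 on the Tet2-deficient Th17 arrays, against 10.76 and 10.43 on the Tet2-deficient Th1 arrays, and 10.59 and 10.64 in wild-type Th17 cells, against 10.28 and 10.65 in wild-type Th1 cells. Both Th17 groups lay within the spread of the Th1 arrays, and the log2 fold changes were 0.005 ± 0.15 and 0.15 ± 0.15. The dimmer probe set of Slc38a1 did not pass in either genotype but rose in the average over genotypes (0.53, adjusted p = 0.0216, limma over all single-symbol probe sets). The probe sets of this gene therefore disagree. Slc38a2 read 10.72 and 10.73 on the Tet2-deficient Th17 arrays, against 10.99 and 10.996 on the Tet2-deficient Th1 arrays, and 10.93 and 10.76 in wild-type Th17 cells, against 10.60 and 10.95 in wild-type Th1 cells. The Tet2-deficient groups were apart and the wild-type groups overlapped, at -0.27 ± 0.14 (adjusted p = 0.262) and 0.07 ± 0.14 (adjusted p = 0.800).

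Slc36a1 and Slc38a9 differed between the subsets, Slc36a1 in Tet2-deficient cells and Slc38a9 in the average over genotypes. Slc36a1 encodes PAT1, a proton-coupled carrier of small neutral amino acids that takes part in mTORC1 activation. It read 7.28 and 7.16 on the Tet2-deficient Th17 arrays, against 6.75 and 6.52 on the Tet2-deficient Th1 arrays, and 7.03 and 7.15 in wild-type Th17 cells, against 6.34 and 6.87 in wild-type Th1 cells. The subsets did not overlap, and the signal exceeded the array median on 6 of the 8 arrays. The difference passed in Tet2-deficient cells (0.58 ± 0.16, adjusted p = 0.0365, kept in 12 of 18 alternatives) and not in wild-type cells (0.49 ± 0.16, adjusted p = 0.0819). Slc38a9, the lysosomal arginine sensor of mTORC1, read 8.73 and 8.79 on the Tet2-deficient Th17 arrays, against 8.28 and 8.38 on the Tet2-deficient Th1 arrays, and 8.80 and 8.60 in wild-type Th17 cells, against 8.24 and 8.52 in wild-type Th1 cells. All Th17 arrays lay above all Th1 arrays. It passed in the average over genotypes (0.37 ± 0.09, adjusted p = 0.0129) and in neither genotype alone. That call was lost when its probe sets were averaged, with a second quantile normalisation or after adding the female share, at an adjusted p of at most 0.144. Its other probe set did not share the difference in that average (log2 fold change -0.003, adjusted p = 0.983), so the probe sets disagree. The Tet2-deficient difference of the brighter probe set passed in 6 of 18 alternatives.

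Slc43a2 encodes LAT4, a facilitative carrier of leucine, phenylalanine and methionine. Its signal was 7.23 and 7.10 on the Tet2-deficient Th17 arrays, against 6.58 and 6.50 on the Tet2-deficient Th1 arrays, and 7.15 and 7.01 in wild-type Th17 cells, against 6.38 and 6.64 in wild-type Th1 cells. The lowest Th17 array was above the highest Th1 array. Slc43a2 rose by 0.63 ± 0.12 in Tet2-deficient cells (1.54-fold, adjusted p = 0.00685) and by 0.57 ± 0.12 in wild-type cells (1.49-fold, adjusted p = 0.0138). The calls were lost without the first Tet2-deficient Th17 array or the second Tet2-deficient Th1 array, and without the first array of either wild-type group. Its relative Slc43a1 (LAT3) read 5.88 and 5.96 on the Tet2-deficient Th17 arrays, against 6.05 and 5.93 on the Tet2-deficient Th1 arrays, and 5.80 and 5.75 in wild-type Th17 cells, against 5.90 and 6.05 in wild-type Th1 cells. It was below the array median throughout and did not pass (-0.07 ± 0.11 in Tet2-deficient and -0.20 ± 0.11 in wild-type cells, adjusted p = 0.731 and 0.282).

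**Figure D2:**
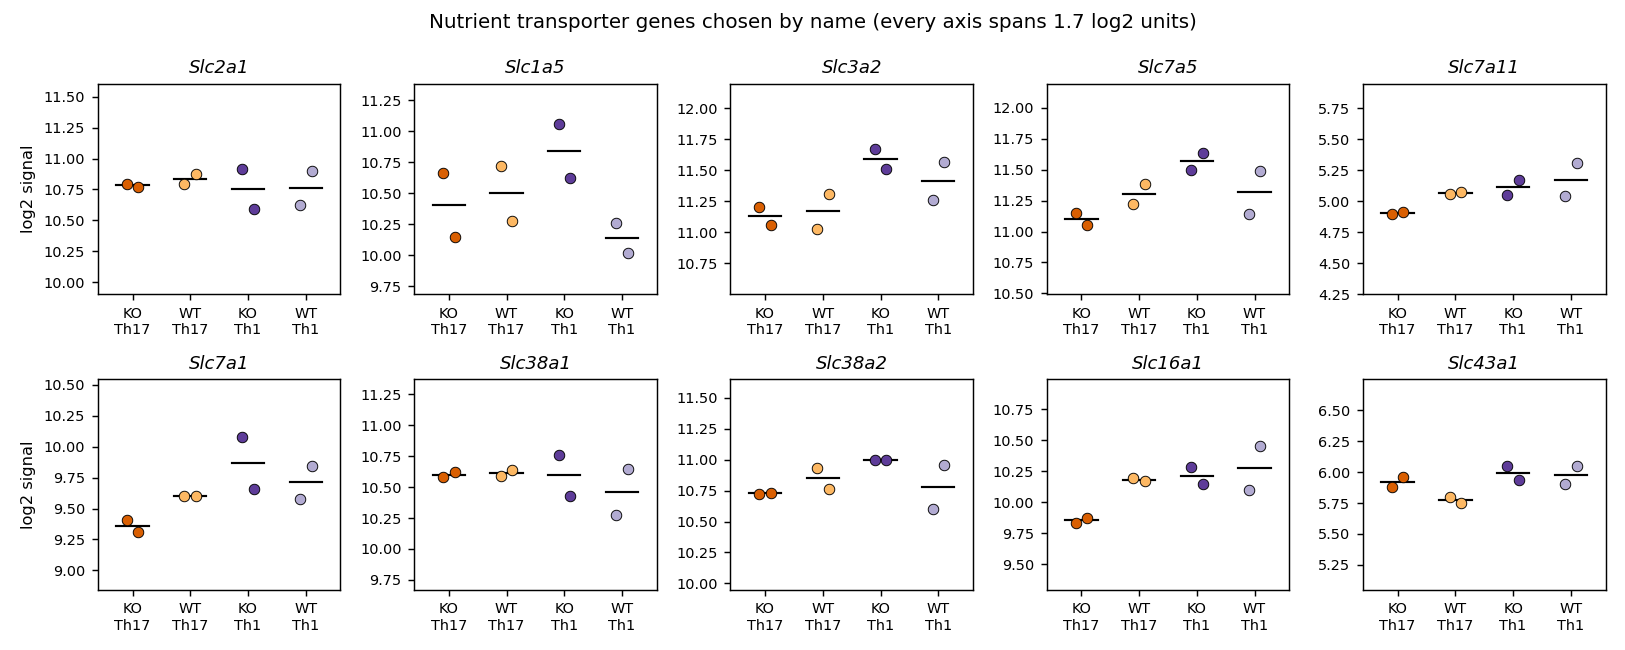
Log2 signal of each array (points) and group mean (bars) for 10 transporter genes chosen by name, in Tet2-deficient Th17, wild-type Th17, Tet2-deficient Th1 and wild-type Th1 cells. Of these, Slc1a5 was highest on a Tet2-deficient Th1 array, at 11.06, and Slc16a1 lowest on the Tet2-deficient Th17 arrays, at 9.83 and 9.87.

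**Figure D3:**
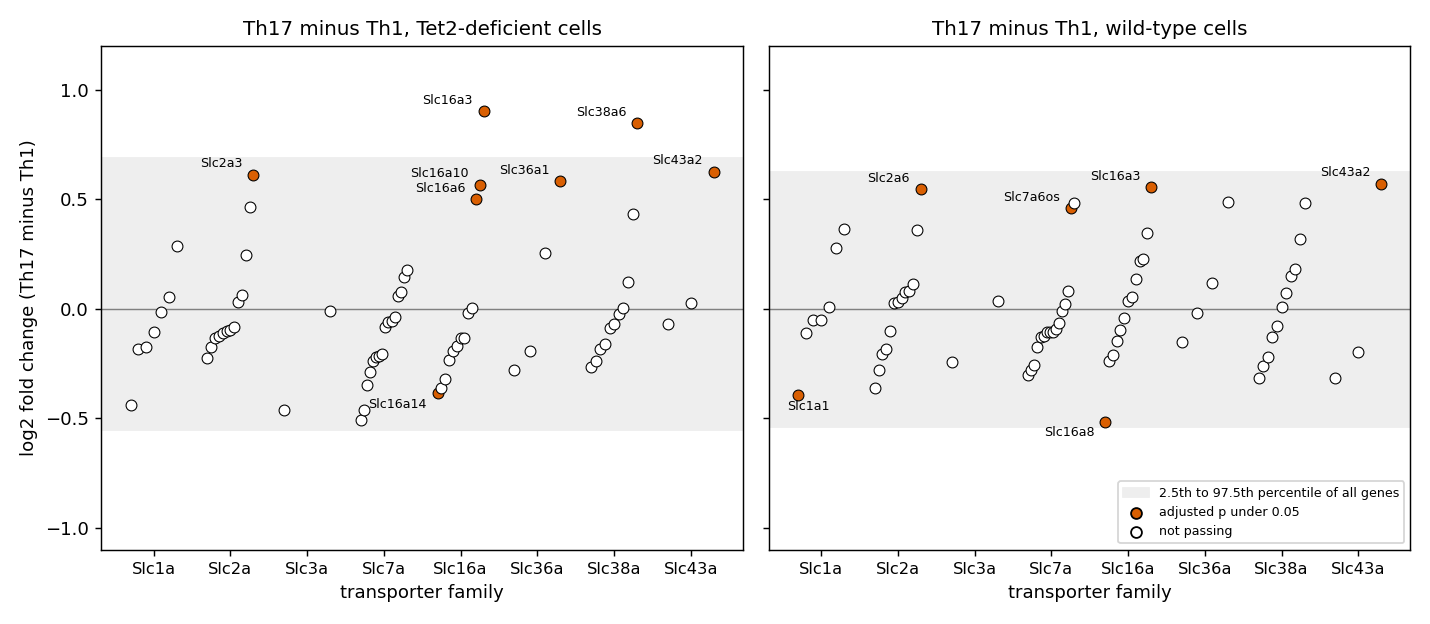
Log2 fold change of Th17 against Th1 for each of the 69 genes by family, in Tet2-deficient cells (left) and wild-type cells (right). Filled points passed at an adjusted p under 0.05, and the grey band holds the middle 95% of all 19938 genes. Most transporters lay inside that band, and Slc16a3 (0.90) and Slc38a6 (0.85) lay above it in Tet2-deficient cells.

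No transporter passed the test between Tet2-deficient and wild-type cells. Of the 69 genes, 0 were called in Th17 cells (limma, against 0% of all genes), 0 in Th1 cells (against 0.00502%, a single gene, Ifng) and 0 in the difference between both effects (against 0%). At an unadjusted p under 0.05 there were 7 of 69 in Th17 cells (10.1%, against 4.13% of all genes), 4 in Th1 cells (5.80%, against 6.05%) and 6 in the difference (8.70%, against 4.48%). The average of the genotype effects over both subsets also called 0 of the 69 genes, against 0% of all genes. There, 3 had an unadjusted p under 0.05 (4.35%, against 5.48%). The log2 fold changes of the 69 genes ran from -0.33 to 0.43 in Th17 cells and from -0.28 to 0.70 in Th1 cells. Their medians were -0.01 and 0.03, against 0.01 in both for all genes. All 18 alternatives also called 0 of them in each subset. The arrays of the 2 genotypes did not overlap for 44.9% of the 69 genes in Th17 cells, against 32.9% of all genes. In Th1 cells the shares were 39.1% and 33.3%, and none of these shares was tested. On the Th17 arrays the genotypes also differed in other ways. The female share was 0.187% and 42.9% for wild type and 14.7% and 100% for Tet2 deficiency, with overlap. Klrd1 read 6.30 and 6.51, then 7.25 and 8.07, in the same order. Ly6g read 9.03 and 9.53, then 10.39 and 10.13. The female-share fit called 0 of the 69 genes in Th17 cells. The part of sex or these markers in the Th17 genotype differences, here and below, was not tested otherwise.

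The transporter with the smallest p in Th1 cells was Slc1a5, which encodes ASCT2, the carrier of glutamine and other small neutral amino acids that activated T cells depend on. It read 11.06 and 10.63 in Tet2-deficient Th1 cells, against 10.26 and 10.01 in wild-type Th1 cells, and 10.66 and 10.14 on the Tet2-deficient Th17 arrays, against 10.72 and 10.28 in wild-type Th17 cells. The Th1 genotypes did not overlap and the Th17 genotypes did. The log2 fold change was 0.70 ± 0.20 in Th1 cells, with an interval from 0.26 to 1.15 and an adjusted p of 0.797, and -0.10 ± 0.20 in Th17 cells. Replicate 1 was the higher array in each of the 4 groups, and with replicate number as a block the adjusted p in Th1 cells was 0.541. Of the other glutamine carriers, Slc38a1 had 0.13 ± 0.15 and Slc38a2 0.22 ± 0.14 in Th1 cells (adjusted p = 0.928 and 0.855).

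Slc1a1 had the smallest p in Th17 cells. It read 6.21 and 6.10 on the Tet2-deficient Th17 arrays, against 5.70 and 5.75 in wild-type Th17 cells, with no overlap and a log2 fold change of 0.43 ± 0.11 (adjusted p = 0.743). In Th1 cells the difference had the other sign, -0.25 ± 0.11 (adjusted p = 0.821). The test of Th17 effect minus Th1 effect gave 0.68 ± 0.15, with an adjusted p of 0.812. Next came Slc16a8, at 6.54 and 6.36 on the Tet2-deficient Th17 arrays, against 6.16 and 6.07 in wild-type Th17 cells (0.33 ± 0.11, adjusted p = 0.991). Slc2a5, the fructose carrier GLUT5, followed at 5.93 and 5.82, against 5.52 and 5.61 in wild-type Th17 cells (0.31 ± 0.11, adjusted p = 0.99996). Slc1a1 and Slc2a5 were below the array median on all 8 arrays. In Th1 cells the genes after Slc1a5 were Slc16a9, the carnitine carrier MCT9, and Slc16a14. Slc16a9 read 6.52 and 6.60 in Tet2-deficient Th1 cells, against 6.26 and 6.17 in wild-type Th1 cells (0.35 ± 0.11, adjusted p = 0.797), and Slc16a14 read 5.63 and 5.78, against 5.35 and 5.48 in wild-type Th1 cells (0.30 ± 0.11, adjusted p = 0.797).

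The carriers of glucose and lactate did not pass in either subset. Slc2a1 had a log2 fold change of -0.05, with an interval from -0.36 to 0.26, in Th17 cells and of -0.004, from -0.32 to 0.31, in Th1 cells. Slc16a3 had 0.25, from 0.01 to 0.50, in Th17 cells and -0.09, from -0.34 to 0.15, in Th1 cells, and both Tet2-deficient Th17 arrays exceeded both wild-type Th17 arrays. For Slc16a1 the Th17 value was -0.33, from -0.63 to -0.03, with both Tet2-deficient arrays below both wild-type arrays. For Slc2a3 it was 0.31, from 0.01 to 0.60, with the Tet2-deficient arrays above. The adjusted p of these 3 genes in Th17 cells was 0.99996. For the leucine exchanger, Slc7a5 had -0.20 ± 0.14 in Th17 cells and 0.25 ± 0.14 in Th1 cells, and Slc3a2 had -0.04 ± 0.15 and 0.18 ± 0.15, none passing.

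**Figure D4:**
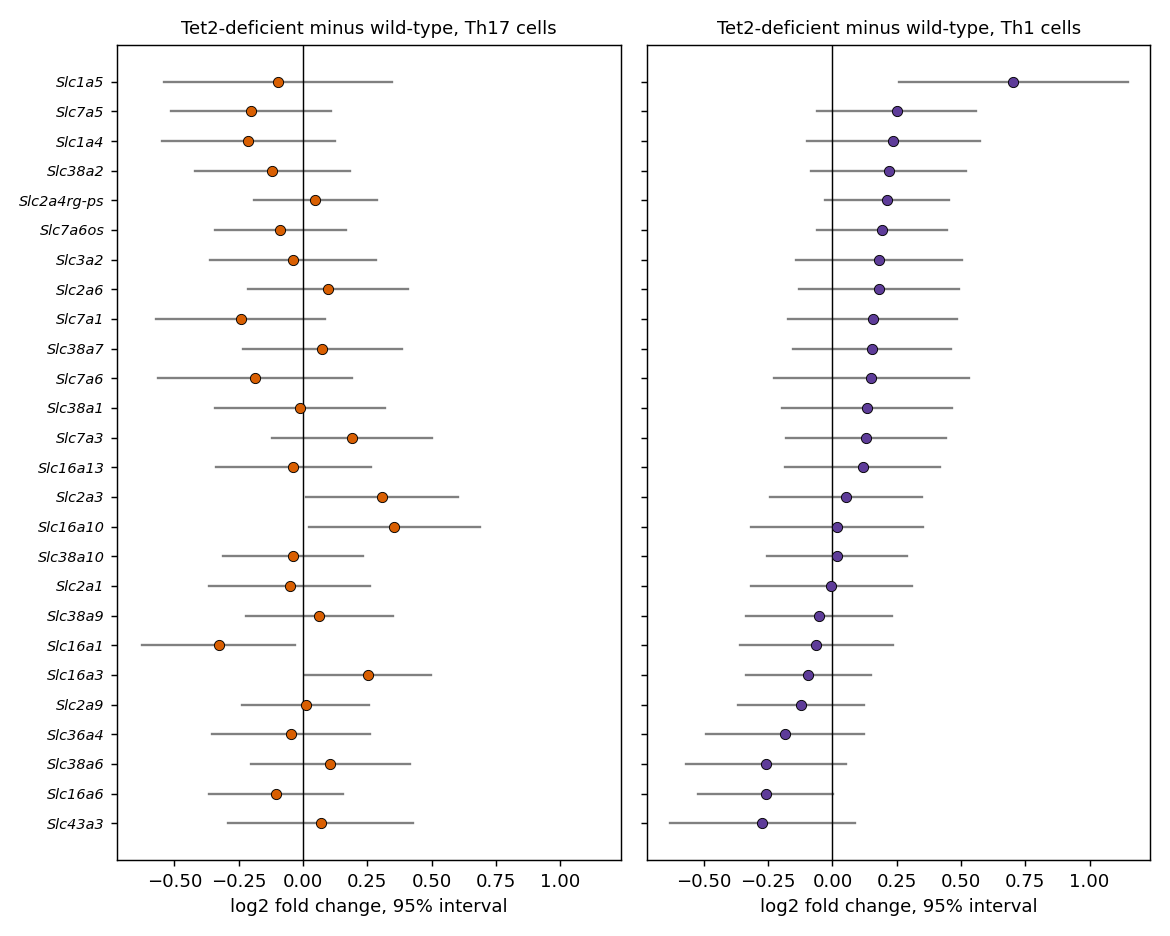
Log2 fold change of Tet2-deficient against wild-type cells with its 95% interval, in Th17 cells (left) and Th1 cells (right), for the 26 transporter genes above the array median on all 8 arrays, ordered by the Th1 value. Slc1a5 in Th1 cells, at 0.70, has the largest value, and no gene passed after adjustment over all genes.

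Several genes that work with these carriers differed between the subsets. Of 16 partners and regulators of transporters, 3 rose and 1 fell in Tet2-deficient Th17 against Th1 cells, and 3 rose in wild-type cells. That is 25% and 18.8% of them, against 10.1% and 8.4% of all genes. Emb, an accessory glycoprotein of monocarboxylate carriers, read 11.31 and 11.31 on the Tet2-deficient Th17 arrays, against 8.72 and 9.13 on the Tet2-deficient Th1 arrays, and 10.97 and 11.09 in wild-type Th17 cells, against 9.08 and 9.003 in wild-type Th1 cells. The subsets were far apart, with log2 fold changes of 2.39 ± 0.14 (adjusted p = 9.22e-07) and 1.98 ± 0.14 (adjusted p = 4.08e-06). Bsg, the accessory protein of MCT1 and MCT4, did not pass (-0.36 ± 0.17 and -0.16 ± 0.17, adjusted p = 0.208 and 0.609). Sgk1, a salt-sensing kinase that acts on several carriers, rose by 1.69 ± 0.13 and 1.45 ± 0.13. Txnip, an arrestin that removes GLUT1 from the cell surface, rose by 1.35 ± 0.12 and 1.003 ± 0.12. The related Arrdc4 fell in Tet2-deficient cells (-0.55 ± 0.15, adjusted p = 0.0379) and did not pass in wild-type cells (-0.43 ± 0.15, adjusted p = 0.101). The medians of the list were 0.03 and 0.14, against -0.03 for all genes.

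Of 14 measured genes of glycolysis and lactate metabolism, 3 rose and 1 fell in Tet2-deficient Th17 cells and 2 rose and 1 fell in wild-type Th17 cells, each against Th1. These are 28.6% and 21.4%, against 10.1% and 8.4% of all genes. Pfkl, the liver-type phosphofructokinase, rose by 1.09 ± 0.14 and 0.96 ± 0.14, and Pfkfb3, which makes the activator of that enzyme, by 0.53 ± 0.12 and 0.63 ± 0.12. Pfkm, the muscle-type enzyme, rose by 0.40 ± 0.11 in Tet2-deficient cells. Hk2, the inducible hexokinase that traps glucose in the cell, was lower in Th17 cells, at -0.55 ± 0.13 and -0.47 ± 0.13. The list's medians were 0.06 and 0.12, against -0.03 for all genes in both genotypes.

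Of 22 genes of amino acid sensing by mTORC1, 3 rose in Tet2-deficient and 4 in wild-type Th17 cells against Th1, with 0 lower in either genotype (13.6% and 18.2%, against 10.1% and 8.4% of all genes). In the average over genotypes 5 rose and 1, Sesn2, fell (-0.49 ± 0.11, adjusted p = 0.00970). Sesn2 is a sestrin, and sestrins hold mTORC1 back. The sestrins Sesn3 (1.37 ± 0.17 and 1.23 ± 0.17) and Sesn1 (1.03 ± 0.14 and 1.24 ± 0.14) rose in both genotypes. Rragb, a Rag GTPase, rose in Tet2-deficient cells (0.90 ± 0.12), and Lamtor4, of the lysosomal anchor, and Nprl2, of the inhibitory GATOR complex, rose in wild-type cells (0.54 ± 0.14 and 0.50 ± 0.12). The list's medians were 0.10 in Tet2-deficient and 0.17 in wild-type cells. Among 22 measured enzymes of glutamine and amino acid metabolism, 0 rose, and 2 fell in Tet2-deficient and 1 in wild-type Th17 cells. These shares of 9.09% and 4.55% were below the 10.1% and 8.4% of all genes. In the average over genotypes Odc1, which starts polyamine synthesis, rose (0.42 ± 0.12, adjusted p = 0.0233). Cth, which makes cysteine, fell in both (-1.42 ± 0.14 and -0.98 ± 0.14), and Bcat1, which transaminates branched-chain amino acids, fell in Tet2-deficient cells (-0.79 ± 0.12), with list medians of -0.13 and 0.04. Of 23 measured nutrient transporters of other families, 2 rose and 2 fell in Tet2-deficient Th17 cells and 2 rose in wild-type Th17 cells (17.4% and 8.70%, against 10.1% and 8.4% of all genes). The lysosomal peptide carrier Slc15a3 (0.74 ± 0.14 and 0.61 ± 0.14) and the mitochondrial aspartate and glutamate carrier Slc25a12 (0.51 ± 0.11 and 0.43 ± 0.11) rose in both, and the glycine carrier Slc6a9 (-1.01 ± 0.18) and the neutral amino acid carrier Slc6a15 (-0.36 ± 0.10) fell in Tet2-deficient cells. Slc6a15 was dim, at 4.40 to 4.90 on all arrays, below every array median. The medians of these transporters were -0.10 and -0.05. No gene of these 5 lists was called between Tet2-deficient and wild-type cells.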

How the data were processed

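The deposited table holds the authors' log2 probe-set signals of 35556 probe sets on 8 arrays. Per the submitters' processing notes, GCOS, RMA and Affymetrix Expression Console were used; their versions, order and options are not given in the sources used here, and the deposited log2 values were taken without further scaling. Genes were named from the platform annotation. Probe sets with several symbols (1621) or none (12146) were left out. The probe set with the highest mean was kept per gene, with no filter on low signal, which left 19938 genes. Array medians were 6.53 to 6.61. Signals have no counting depth, so the number of arrays limits the precision.

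Genes were tested with limma 3.58.1 (R 4.3.3): lmFit on 4 group means, eBayes with an intensity trend, all 8 arrays, 4 residual degrees of freedom. Tests were two-sided, with Benjamini-Hochberg adjustment over all 19938 genes, and an adjusted p under 0.05 was called. The method was tested on simulated data in 10 runs, where false calls were more frequent than the threshold of 0.05 sets. Alternatives were a replicate block, other sets of arrays, genes or probe sets, other normalisations, other eBayes settings, the female share as a covariate and leaving out each array. The deviations of same-numbered arrays were weakly correlated across groups, at -0.186 to 0.0613. These correlations cannot show whether the samples were paired.

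The genes and the lists were chosen with earlier results of these data known, and the motifs with the sequences seen. Values on every array were due for 12 genes fixed by name, for the 3 genes with the smallest p in each Tet2 comparison, and for any gene called in both genotypes with a log2 fold change of at least 1, of which there were 0. Slc16a4, Slc16a6, Slc16a10, Slc2a6, Slc38a3, Slc38a6, Slc38a9, Slc36a1, Slc43a2 and Slc7a6os, and Bsg, Nprl2, Sesn2, Odc1 and the markers, were chosen after their values were seen.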

Additional observations from a re-analysis of the deposited data

How the results depend on the processing

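In the Tet2 comparisons, 0 of the 69 genes were called under every alternative run, while over all genes 0 to 2 were called in Th1 cells, 0 to 4 in Th17 cells and 0 to 4 in the difference. In the comparisons of Th17 with Th1 cells the counts moved. In Tet2-deficient cells, where 7 rose, 4 did so with a second quantile normalisation, 3 with the female share as a covariate, and 2 to 9 when 1 array was left out. The 1 that fell became 3 with only the arrays compared or the filter at the median level, 4 with quantile normalisation, 2 without the intensity trend, 0 with centred arrays or the female share, and 0 to 4 without 1 array. In wild-type cells, where 4 rose, 2 did so with only the arrays compared or quantile normalisation, and 0 to 5 without 1 array. The 2 that fell became 0 with the filter, 1 with only the arrays compared, quantile normalisation, centring or the female share, and 0 to 2 without 1 array. In the average over genotypes, 10 rose and 5 fell. With the female share these were 5 and 0, with the filter or centring 2 fell, and without 1 array 8 to 12 rose and 1 to 8 fell. The filter removes dim genes, and the other causes were not tested. Over all genes, the calls were 2015 in Tet2-deficient cells, against 726 with the female share and 801, 933, 1103 and 1204 without one of its arrays. They were 1675 in wild-type cells, against 1101 with only the arrays compared and 1029 and 663 without the first Th1 or the second Th17 array, and 4417 in the average, against 2054 with the female share and 2651 without the first Tet2-deficient Th17 array. For single named genes, 3117 values stayed on their side of the threshold, 124 lost a call and 44 gained one. The 3117 include all values of the Tet2 comparisons, where no gene was called. Of all values, 0 changed sign with a call in either fit. Sign changes between uncalled values were not counted, as for Slc2a1 between the genotypes in Th1 cells (-0.17 to 0.16).

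With replicate number as a block, 7 genes rose and 0 fell in Tet2-deficient cells and 3 rose and 1 fell in wild-type cells. The titles do not say whether the numbers pair the arrays. Between wild-type Th1 and Th17 arrays the correlation was -0.186, and with the numbers of one group crossed, 7 genes were called in place of 6.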

Other observations

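Slc38a1 had a second probe set that differed from the one described. Its log2 fold change between Th17 and Th1 cells, averaged over genotypes, was 0.53 (adjusted p = 0.0216, limma over all single-symbol probe sets), against 0.08 (adjusted p = 0.638) for the brighter probe set. The 2 probe sets of Slc16a9 did not pass in this average (adjusted p = 0.104 and 0.801). In wild-type Th17 against Th1 cells, Slc7a6 (0.48, adjusted p = 0.110), which encodes the y+LAT2 exchanger, had nearly the same log2 fold change as its opposite-strand neighbour Slc7a6os, and did not pass. Slc1a4, the carrier of alanine, serine and cysteine, had -0.21 in Tet2-deficient against wild-type Th17 cells and 0.24 in Th1 cells, neither passing.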
